A study of Homo sapiens with 8 samples.

Results

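IGF2BP3 and 5 related oncofetal genes were examined in LP-1 multiple myeloma cells, as 6 of the 18564 genes in the deposited table. The genes were IGF2BP1, IGF2BP2, IGF2BP3, LIN28B, HMGA1 and HMGA2. IGF2BP3 was chosen by its measured level, because it was lower in every bortezomib-resistant library of this series, and the other 5 were taken as its relatives. The values of IGF2BP3 are therefore given below as a description with no test, whereas its relatives were tested.

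LP-1 is an established human myeloma cell line. Wild-type cells (WT) and bortezomib-resistant cells (BR, kept with the proteasome inhibitor bortezomib for 2 months) received DMSO, the vehicle, or 25 nM SI-2 for 24 hours. SI-2 is a small-molecule inhibitor of the steroid receptor coactivator SRC-3. Each of the 4 conditions had 2 RNA-seq libraries, so each line had 4. Thus WT-DMSO cells had neither drug, WT-SI-2 cells had SI-2 alone, BR-DMSO cells had bortezomib culture alone and BR-SI-2 cells had both, and all were grown in RPMI-1640 medium with serum. The sources used here do not state whether the BR line is 1 clone or whether bortezomib was present at harvest. The study calls the BR samples independent experiments, and for WT cells nothing says that the libraries came from separate cultures, so p-values measure only the spread between these libraries.

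The 3 IGF2BP proteins bind mRNAs, including mRNAs methylated at N6-adenosine, and are known for protecting them from decay and steering their translation. They are abundant in the embryo, and IGF2BP1 and IGF2BP3 become scarce in most adult tissues and return in many tumours. LIN28B blocks the maturation of let-7 microRNAs, and let-7 in turn represses mRNAs such as those of HMGA2, IGF2BP1 and LIN28B itself. HMGA1 and HMGA2 are chromatin architectural proteins that bind AT-rich DNA.

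The let-7 seed is the sequence feature that links these genes, so the let-7a sequence and 1 matching site per gene are shown. All 9 mature let-7 and miR-98 names in RefSeq (GRCh38.p14) shared the seed GAGGUAG, bases 2 to 8, drawn in capitals for let-7a. In the sites, capitals mark the letters CTACCTC, the reverse complement of the seed, searched on the transcript strand only.

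let-7a: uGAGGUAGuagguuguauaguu
IGF2BP1: gcgaagtaaaCTACCTCaaggtatgaa
IGF2BP2: acagaagaagCTACCTCaggtgttttt
IGF2BP3: ttttactcaaCTACCTCaggtattcag
LIN28B: gttgcaaagtCTACCTCatgcaagtat
HMGA1: tgttcacaaaCTACCTCtggacagttg
HMGA2: cgttcgatttCTACCTCagcagcagtt

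These sites lie in 3′ UTRs of GENCODE 29 transcripts on GRCh38. The IGF2BP1 stretch is at chr17:49051066-49051092 on the plus strand and the IGF2BP2 stretch at chr3:185644211-185644237 on the minus strand. The IGF2BP3 stretch is at chr7:23311786-23311812 on the minus strand. The LIN28B stretch is at chr6:105078817-105078843, the HMGA1 stretch at chr6:34245834-34245860 and the HMGA2 stretch at chr12:65963303-65963329, all on the plus strand. The match occurred 4 times each in the 3′ UTRs of IGF2BP1, LIN28B and HMGA2, and 1 time each in those of IGF2BP2, IGF2BP3 and HMGA1. Of the 18991 3′ UTRs searched, 8.07% held at least 1 match and 0.158% held 3 or more. Length bears on holding at least 1 match. Such a match was in 11.9% of 3′ UTRs within 20% of the length of that of IGF2BP3 (2153 bases). It was in 28.3% of those within 20% of the length of that of IGF2BP1 (6206 bases). At least 4 matches were rarer among 3′ UTRs of like length, at 0.646% for IGF2BP1, 0.263% for LIN28B and 0.113% for HMGA2. A match describes the letters only, and let-7 itself was not analysed here.

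One library stood apart from the rest before any gene of the group was compared. The second BR-SI-2 library contained RNA of genes for connective tissue matrix that the other 7 libraries nearly lacked. COL1A1, a chain of type I collagen, had 53.8 CPM (counts scaled to library depth by the TMM method) in this library and at most 0.341 CPM in the others. COL3A1, the chain of type III collagen, had 52.1 CPM against at most 0.282 CPM. The whole list of 5 such markers (COL1A1, COL1A2, COL3A1, DCN and LUM) summed to 27.2 FPKM, a level per transcript length, in this library. The same sum was between 0.0700 and 0.160 FPKM in the other 7, and COL1A1 was the most abundant of the 5 on average. In all, 32 genes had at least 5 CPM in this library and at most 0.5 CPM in every other, and no other library had such a gene. This rule was set after the collagen values were seen. IGF2, the growth factor whose mRNA gave the IGF2BP proteins their name, belonged to them with 5.22 CPM in this library and at most 0.111 CPM elsewhere. The part of this RNA in the results below was not tested. For the 5 fitted genes, BR against WT is also given without this library. So are the SI-2 effects in BR cells on IGF2BP3 and HMGA2. The gene lists, the likeness ranks and the counts of called genes with let-7 matches are given only with this library included.

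**Figure D1:**
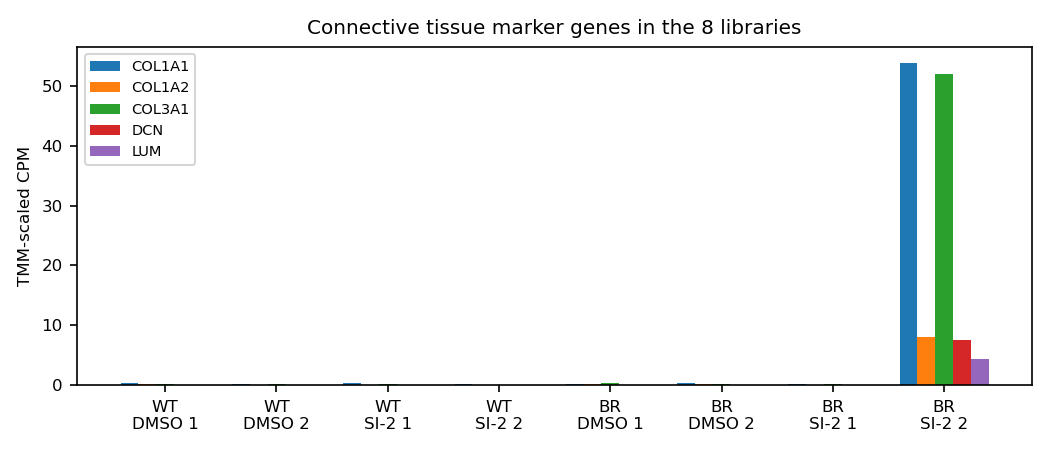
TMM-scaled CPM (y axis) of 5 connective tissue marker genes in each of the 8 libraries (x axis, condition and replicate). COL1A1 and COL3A1 reach 53.8 and 52.1 CPM in the second BR-SI-2 library and stay at or below 0.341 CPM in the other 7.

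Of 10 plasma cell markers, 8 had a mean of over 20 CPM. JCHAIN, the joining chain of secreted antibodies, was the most abundant with a mean of 3354 FPKM, whereas SLAMF7 had a mean of 1.07 CPM and FCRL5 at most 5 counts in a library. Although the cells are labelled as B lymphoblasts, B cell markers were near zero, since MS4A1, PAX5 and CD22 had at most 3 counts in every library. The T cell list was likewise low, with CD3G at a mean of 0.605 FPKM as its most abundant gene, and in the myeloid list LYZ had a mean of 2.45 FPKM. These are bulk libraries, in which fewer cells of a type and less RNA per cell cannot be told apart.

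IGF2BP3, the gene that chose the group, had 35.0 and 29.7 CPM in the WT-DMSO libraries and 36.2 and 29.6 CPM in the WT-SI-2 libraries. It had 7.96 and 8.44 CPM in the BR-DMSO libraries and 8.71 and 7.30 CPM in the BR-SI-2 libraries. The lines did not overlap, and the lowest WT library lay 3.40-fold above the highest BR library. Behind these levels were 533 to 659 estimated counts per WT library and 140 to 159 per BR library. The fitted log2 fold change over all 8 libraries was -2.01 (SE 0.12), which is 4.03-fold lower in BR cells and the 7th lowest of the 13520 genes fitted. The same value was -1.98 under DMSO and -2.04 under SI-2, and it was -1.96 over both treatments without the second BR-SI-2 library. The values under the 2 treatments had standard errors of 0.20 and were not compared by a test. The gene was chosen on the libraries of both treatments.

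**Figure D2:**
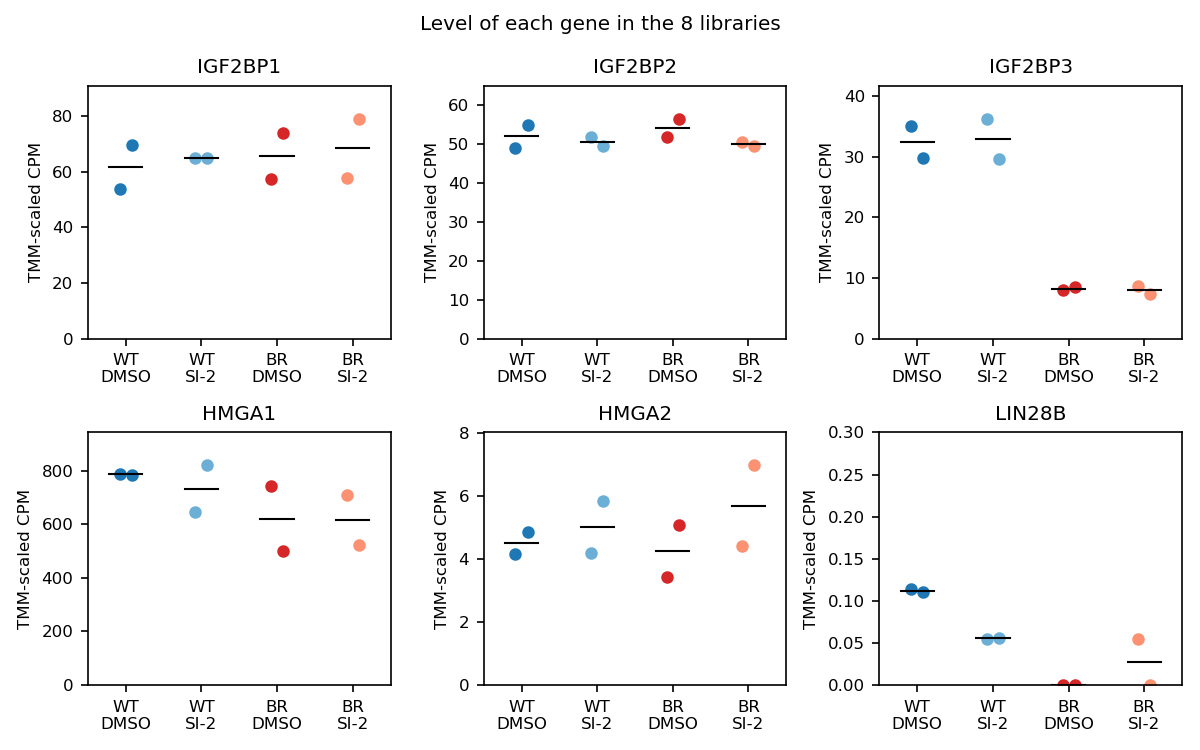
TMM-scaled CPM (y axes, each starting at 0) of the 6 genes in WT and BR cells with DMSO or SI-2 (x axes). Points are libraries, lines are the means of 2 libraries, and among the 5 fitted genes only IGF2BP3 has all BR points, 7.30 to 8.71 CPM, well below all WT points, 29.6 to 36.2 CPM.

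IGF2BP1, the second member of the IGF2BP family, did not pass the test between the lines. It had 53.8 and 69.7 CPM with DMSO and 65.1 and 64.9 CPM with SI-2 in WT cells. In BR cells it had 57.4 and 74.1 CPM with DMSO and 58.0 and 79.1 CPM with SI-2. The lines overlapped, and the log2 fold change in BR against WT was 0.083 (SE 0.13, 95% confidence interval -0.21 to 0.37, adjusted p = 0.794, edgeR). Without the second BR-SI-2 library, its highest, the value was -0.0051.

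IGF2BP2, which unlike its relatives stays expressed in many adult tissues, varied least of the group within BR cells. It had 49.1 and 55.0 CPM with DMSO and 51.7 and 49.6 CPM with SI-2 in WT cells, and 51.9 and 56.5 CPM with DMSO and 50.6 and 49.6 CPM with SI-2 in BR cells. The lines overlapped almost fully, with a log2 fold change of 0.022 (SE 0.088, 95% confidence interval -0.17 to 0.22, adjusted p = 0.928, edgeR). That value was 0.046 without the second BR-SI-2 library. The intervals of both IGF2BP1 and IGF2BP2 did not reach the value of IGF2BP3. As IGF2BP3 was chosen for being low in BR cells, this is no test of a difference between the genes.

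Per transcript length, IGF2BP2 was the most abundant of the 3 in every library, at 13.5 to 16.5 FPKM. In WT cells IGF2BP1, at 5.94 to 7.84 FPKM, and IGF2BP3, at 7.03 to 8.90 FPKM, were close and overlapped. In BR cells IGF2BP3 was at 1.80 to 2.12 FPKM, below IGF2BP1 at 6.35 to 9.46 FPKM in each library. IGF2BP3 thus made up 26.7% ± 3.16 (SD, n = 4) of the summed FPKM of the family in WT cells and 7.97% ± 0.988 (SD, n = 4) in BR cells. The family sum was 29.3 ± 1.47 FPKM in WT and 24.6 ± 2.49 FPKM in BR cells (SD, n = 4 each). The highest BR sum was 27.3 FPKM, against a lowest WT sum of 27.7 FPKM. These sums contain the chosen gene and were not tested.

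LIN28B was barely detected. It had 2 counts in each WT-DMSO library and 1 count in each WT-SI-2 library. In BR cells it had 1 count in the first SI-2 library and 0 in the other 3. All of these are at or below 3 counts, the limit that a count of 0 allows, which is 0.157 to 0.171 CPM in a library here. LIN28B was therefore not fitted, and no difference between lines was detectable at this depth.

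HMGA1 was by far the most abundant gene of the group, at 263 to 412 FPKM. It had 789 and 784 CPM with DMSO and 645 and 819 CPM with SI-2 in WT cells. It had 741 and 501 CPM with DMSO and 709 and 521 CPM with SI-2 in BR cells. The lines overlapped, since the second BR library of each treatment was low while the first was within the WT range. The log2 fold change was -0.30 (SE 0.14, 95% confidence interval -0.61 to 0.018, adjusted p = 0.371, edgeR), which did not pass the threshold of 0.05 and was -0.22 without the second BR-SI-2 library.

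HMGA2, the relative with the most let-7 matches per length, was low, at 1.20 to 2.44 FPKM. It had 4.16 and 4.88 CPM with DMSO and 4.19 and 5.84 CPM with SI-2 in WT cells. In BR cells it had 3.43 and 5.10 CPM with DMSO and 4.42 and 6.98 CPM with SI-2. The lines overlapped and the highest value belonged to the second BR-SI-2 library, the one with collagen RNA. The log2 fold change of 0.071 (SE 0.22, adjusted p = 0.904, edgeR) became -0.14 without that library. Reads of HMGA1 and HMGA2 were partly shared with other features, as their estimated counts were not whole, whereas those of the IGF2BP genes and LIN28B were.

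Set against all genes, 0 of the 4 relatives tested passed an adjusted p of 0.05 in BR against WT, where 49 of 13520 genes (0.362%) did in the edgeR fit and 1942 did at an unadjusted p of 0.05. In this fit none of the 4 relatives passed at the unadjusted level either. HMGA1 did so with upper-quartile scaling, library size scaling, the replicate block, both limma scales, and without the first WT-SI-2, BR-DMSO or BR-SI-2 library, but its adjusted p was 0.177 or higher (edgeR, DESeq2 and limma) under every alternative run. The count of 49 moved to 21 without the second WT-SI-2 library and to 125 without the first, and 0 relatives were called in either case. All 4 BR libraries lay below all 4 WT libraries for 0 of the 4 relatives and for 4.36% of all genes, and above them for 0 of the 4 and for 3.85% of all genes. Under DMSO alone the edgeR fit called 0 of 13896 genes (0%), with 540 at an unadjusted p of 0.05 and 28 by DESeq2. Under SI-2 alone it called 1 gene (0.0072%), which was none of the relatives.

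The SI-2 comparisons asked whether the SRC-3 inhibitor moved these genes. The choice of IGF2BP3 rested on the SI-2 libraries too, so its SI-2 values carry no test. No gene of the whole table passed an adjusted p of 0.05 (0%) for SI-2 in BR cells, for SI-2 in WT cells or for the difference between them in the edgeR fit. At an unadjusted p of 0.05 there were 167, 74 and 74 genes, and DESeq2 called 1 gene in each. For IGF2BP3 the log2 fold change with SI-2 was -0.037 in BR cells (SE 0.20) and 0.025 in WT cells (SE 0.19). The value in BR cells was 0.087 without the second BR-SI-2 library. The SI-2 effect in BR minus that in WT was -0.062 (SE 0.27). Among its relatives the largest SI-2 effect was that of HMGA2 in BR cells, a log2 fold change of 0.42 (SE 0.32, adjusted p = 0.99995, edgeR). It was 0.054 without the second BR-SI-2 library.

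**Figure D3:**
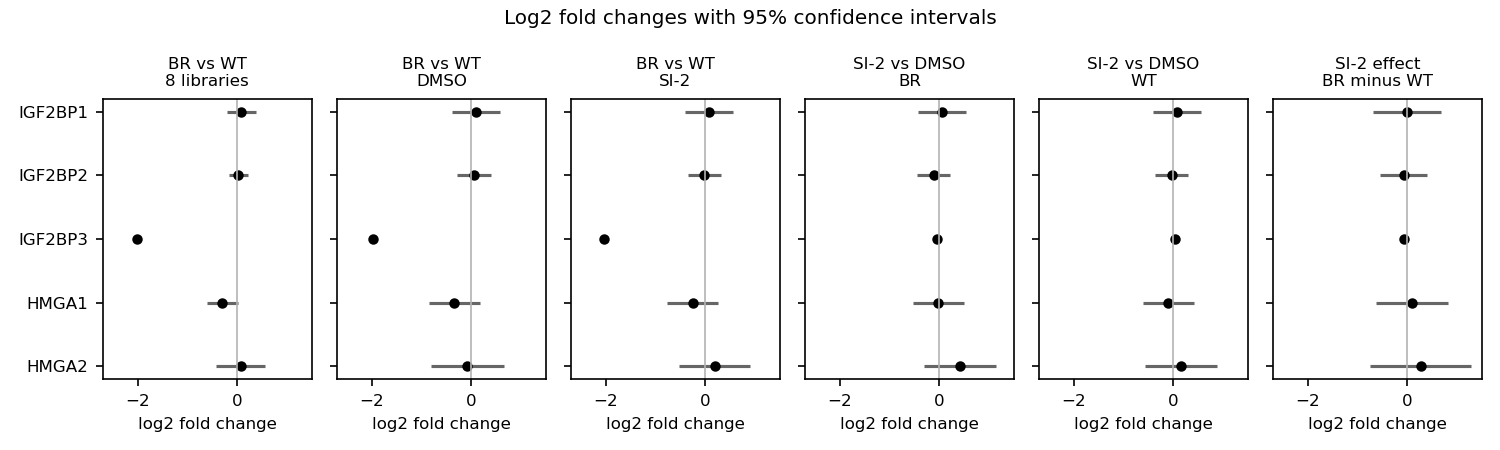
Log2 fold changes (x axes) with 95% confidence intervals (bars, not drawn for IGF2BP3) of the 5 fitted genes (rows) in the 6 comparisons (panels). Only IGF2BP3, which was chosen for it, lies far from 0, near -2.0 in the panels that set BR against WT, while the SI-2 intervals of the other 4 genes include 0.

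The difference in IGF2BP3 fell on its main transcript. The transcript table split the gene over 6 RefSeq transcripts, and NM_006547.2, the curated mRNA, had 32.1, 24.5, 30.0 and 26.5 CPM in the WT libraries. It had 5.45, 6.58, 5.22 and 5.83 CPM in the BR libraries, all below the WT values. The mean was 28.3 ± 3.41 CPM in WT and 5.77 ± 0.593 CPM in BR cells (SD, n = 4 each), a ratio of 4.90. XM_011515089.2, a predicted transcript, had 1.40, 4.32, 2.85 and 1.79 CPM in WT and 2.51, 1.86, 2.33 and 1.48 CPM in BR cells, and the lines overlapped. NM_006547.2 accordingly held 86.5% ± 4.65 of the gene's counts in WT and 71.5% ± 9.17 in BR cells (SD, n = 4 each). Such splits are estimates, because these transcripts share most of their sequence, and they were not tested for IGF2BP3.

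**Figure D4:**
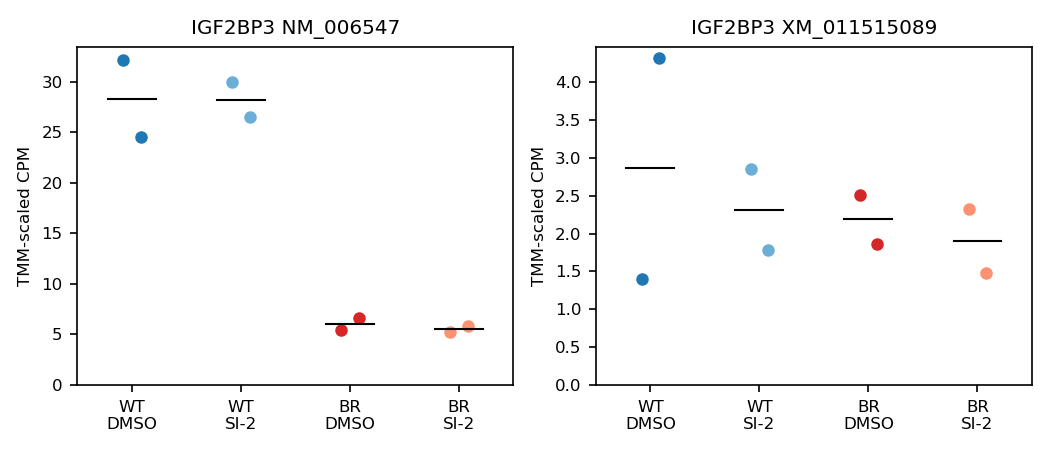
TMM-scaled CPM (y axes, of different range) of the 2 most abundant IGF2BP3 transcripts in the 8 libraries (points) with condition means (lines). The curated NM_006547 is at 24.5 to 32.1 CPM in WT and 5.22 to 6.58 CPM in BR cells, whereas the predicted XM_011515089 overlaps between lines.

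For the relatives, the share of the most abundant transcript was tested with an exact two-sided permutation test over the 8 libraries, whose smallest possible p is 0.0286. In IGF2BP2 the predicted transcript XM_024453316.1 held 44.5, 54.9, 52.0 and 48.9% of the counts in WT and 40.0, 33.3, 40.4 and 34.0% in BR libraries. These shares did not overlap, and how many of all genes separate the lines in this way was not counted. IGF2BP2 was split over 16 transcripts, and its XM_017005558.2 ranged from 6.28 to 37.3% in WT libraries, so such shares are uncertain estimates. For XM_024453316.1 the exact permutation p was 0.0286 with 0.114 after adjustment over the 4 genes. A gene that is alone at the smallest p cannot go below this adjusted value, so the design could not have passed the threshold for IGF2BP2 alone. In HMGA2 the share of NM_003483.4 was 50.6% in WT and 65.2% in BR cells on average (exact permutation p = 0.0571, adjusted 0.114). The share of NM_145899.2 in HMGA1 was 61.3% and 62.5% (exact permutation p = 0.629). IGF2BP1 could not be read this way, as NM_006546.3 ranged from 0% to 71.2% of its counts between libraries (exact permutation p = 0.371).

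None of the genes tested next to IGF2BP3 on chromosome 7 passed the test in BR against WT. Of its 5 nearest tested genes on each side, 6 had a log2 fold change above and 4 below 0, from -0.20 to 0.27. Of these 0 were called by edgeR, where 0.362% of all genes tested were. MALSU1, a mitochondrial ribosome factor and the neighbour on one side, had -0.021 (adjusted p = 0.957, edgeR). TRA2A, a splicing regulator and the neighbour on the other side, had 0.25 (adjusted p = 0.430, edgeR). Near the relatives, the only called gene was ETV5, an ETS family transcription factor that is the second tested gene from IGF2BP2 on chromosome 3. ETV5 had 25.9, 25.6, 13.4 and 22.3 CPM in WT and 4.57, 3.50, 5.59 and 3.03 CPM in BR libraries, a log2 fold change of -2.39 (SE 0.25, adjusted p = 0.00239, edgeR). TRA2B, which lies between them, had 0.42 (adjusted p = 0.396, edgeR), and SENP2, a SUMO protease on the other side of IGF2BP2, had -0.22 (adjusted p = 0.332, edgeR).

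**Figure D5:**
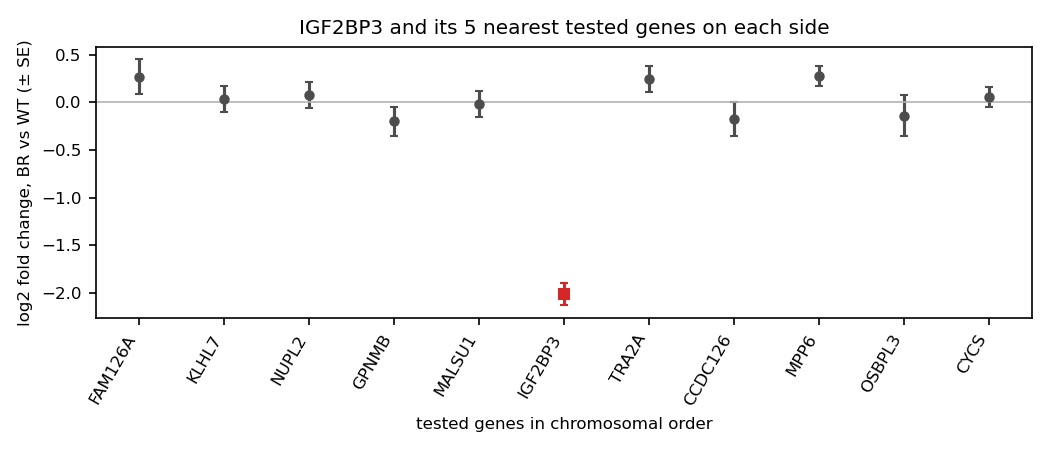
Log2 fold change in BR against WT with its standard error (y axis) of IGF2BP3 (square) and the 5 nearest tested genes on each side (circles) in chromosomal order (x axis). The neighbours lie between -0.20 and 0.27, and IGF2BP3 at -2.01.

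The genes whose pattern over the 8 libraries was most like that of IGF2BP3 were other genes low in BR cells, as the measure implies. Likeness was the root mean square difference of centred log2 values over the 8 libraries, among 12747 genes with a mean of at least 1 CPM. CYP26A1, an enzyme that degrades retinoic acid, was the closest at 0.302, where the median gene was at 0.996. It had 6.31, 6.37, 6.76 and 7.06 CPM in WT and 2.54, 1.91, 2.52 and 1.30 CPM in BR libraries. P2RY6, a nucleotide receptor, followed at 0.346, then the transcription factor FOXP2 at 0.396, ETV5 at 0.401 and PLPPR1 at 0.408. Of the relatives HMGA1 came closest, at rank 1071, whereas IGF2BP2 was at rank 6095, IGF2BP1 at 8573 and HMGA2 at 8855.

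The genes that work with this group were counted in BR against WT by lists, with the median log2 fold change beside that of all genes, 0.0042. Not 1 gene of any list passed the adjusted p of 0.05 in any of the 6 edgeR comparisons. Over all genes 0.362% passed in BR against WT and at most 0.0072% in each of the others. A count of 0 in lists this short is therefore near the share over all genes and describes no trait of the lists. For the writers and erasers of N6-methyladenosine, 10 genes were tested, with 7 above 0 and a median of 0.12. METTL3, the catalytic methyltransferase, had -0.048 and its partner WTAP 0.24 (adjusted p = 0.818 and 0.429, edgeR). The 17 other mRNA readers and partners had a median of 0.051, with FXR2, a relative of the fragile X protein, at 0.20 (adjusted p = 0.566, edgeR) and PABPC1, the poly(A)-binding protein, at -0.16 (adjusted p = 0.489, edgeR). Known IGF2BP target mRNAs had a median of 0.097 over the 15 tested of 19. MYC, the best known of them, had 0.17 (adjusted p = 0.467, edgeR) and ACTB, another, 0.53 (adjusted p = 0.246, edgeR). LEF1 had 0.32 (adjusted p = 0.192, edgeR), and CCNG1 had -0.21.

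The lists for let-7 held no call either. The 15 tested genes of let-7 processing had a median of 0.015, with DICER1, the nuclease that cuts the hairpin, at 0.20 (adjusted p = 0.342, edgeR) and TUT7, which adds uridine to let-7 precursors, at -0.32 (adjusted p = 0.321, edgeR). The 22 tested let-7 targets split into 11 above and 11 below 0 with a median of 0.0063. FAS, a death receptor, had the highest value of these at 0.52 (adjusted p = 0.158, edgeR) and TGFBR1, a TGF-beta receptor, the lowest at -0.57 (adjusted p = 0.209, edgeR). Across the whole table and leaving IGF2BP3 out, 1210 tested genes had at least 1 seed match in the 3′ UTR, and their median was 0.015. Of them 5 (0.413%) were called by edgeR, near the 0.355% of all 13519 genes without IGF2BP3. All 5 were lower in BR cells, as were 33 of the calls over all genes, against 15 higher. They were CCL3, a chemokine (-2.61), IL22RA1, an interleukin receptor chain (-1.93), FOXP2 (-1.58), CERCAM (-1.17) and CDKN1A, the cell cycle inhibitor p21 (-1.10, all log2 fold changes). The 23 tested genes with 3 or more matches had a median of -0.081, with 0 called. This grouping by matches was made, and these genes were named, after the values were seen.

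Other lists completed the picture. The 12 further HMG genes had a median of 0.12, with HMGB3 at 0.35 (adjusted p = 0.222, edgeR) and HMGN4 at -0.19. Of 13 oncofetal genes 7 were tested, with a median of 0.038, and IGF1R and IGF2R, receptors of the IGF system, had 0.045 and -0.14. The proliferation list had 12 of 12 genes above 0 and a median of 0.37, with 0 called and 5 at an unadjusted p of 0.05, where 1942 of the 13520 genes tested in edgeR were. TOP2A, the topoisomerase of dividing cells, had 0.59 (adjusted p = 0.120, edgeR) and TYMS 0.016. Plasma cell markers had a median of -0.23 over 9 tested genes, 2 above and 7 below 0. MZB1, a chaperone of antibody secretion, had -0.67 and the adhesion molecule SDC1 -0.53 (adjusted p = 0.201 and 0.242, edgeR), whereas CD38 had 0.15 and JCHAIN 0.13 (adjusted p = 0.785 and 0.710, edgeR). NSD2 and FGFR3, which the translocation typical of LP-1 activates, had 0.37 and 0.58 (adjusted p = 0.150 and 0.116, edgeR). The part of these differences in the level of IGF2BP3 was not tested.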

How the data were processed

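RNA of the 8 LP-1 libraries was sequenced on a BGISEQ-500. The deposited values were made by the authors: estimated counts and FPKM per gene and transcript, for which the submitters' processing notes name BWA, Bowtie2, RSEM and hg19, with versions not given in the sources used here. The authors' comparison tables (fold changes and p-values) and the averaged columns were not used. Estimated counts were rounded and tested in edgeR 4.0.16 (quasi-likelihood, TMM, Benjamini-Hochberg over all genes) with R 4.3.3, after edgeR's filterByExpr, which left 13520 genes (BR against WT) or 13896 (4-condition fit). Library totals were 17997771 to 18570027 estimated counts. Alternatives used limma 3.58.1 on log2(FPKM + 1) and log2(FPKM + 0.1), DESeq2 1.42.0, other scalings and filters, and left out each library. The tests were also run on simulated data, and the outcome is not reported here.

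The 6 genes, the gene lists and the naming rules were chosen with earlier results of these data known. Named were the 6 genes, called genes of a list or else its 2 highest and 2 lowest with a mean of at least 5 CPM, the nearest tested neighbours and called ones, and the 5 most alike genes. One gene that this rule names is not reported here. MYC, IGF2, the genes with let-7 matches, the collagens and the marker genes were named after their values were seen. Gene order came from RefSeq, and the sites from GRCh38 rather than hg19. Where a gene's 3′ UTR had several models, that of its most abundant transcript was searched, or the longest. 18267 of 18564 gene IDs matched RefSeq.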

Additional observations from a re-analysis of the deposited data

Results flagged for a closer look

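The summed level of the 5 connective tissue markers was 27.22 FPKM in the second BR-SI-2 library, far above the other 3 BR libraries. The summed level of NSD2 and FGFR3 was 340.85 FPKM in the first BR-SI-2 library, below the other 3 BR libraries, which lay between 411.5 and 423 FPKM. The summed level of 4 T cell markers was 2.07 FPKM in the second BR-SI-2 library, against 1.04 to 1.14 FPKM in the other 3. Each stood out by the gap of 1 library to the next within 4 libraries of a line, a test that chance passes in about 1 of 20 groups. None of the 5 fitted genes was set apart in this way in either line.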

How the results depend on the processing

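The log2 fold change of IGF2BP3 in BR against WT stayed between -2.05 and -1.96 over 8 libraries when any 1 library was left out. It was -1.58 in all libraries, -1.56 under DMSO and -1.59 under SI-2 with limma on log2(FPKM + 1), since that pseudocount shrinks low genes. None of the 4 relatives was called in any comparison under any alternative run. The 49 genes called in BR against WT became 399 with DESeq2, 18 with condition terms, and 21 to 125 when 1 library was left out (21 without the second WT-SI-2 library and 125 without the first, 86 and 24 without the first and second BR-DMSO library, 29 and 32 without those of BR-SI-2, and 27 without the second WT-DMSO library). With the replicate block 155 genes were called, the 49 among them. The correlation of replicate differences between conditions was over 0.1 in 5 of 6 pairs of conditions, at 0.51 within WT and 0.44 within BR, and -0.18 between WT-SI-2 and BR-DMSO. Since 1 pair was below, the replicate numbers were not taken as a pairing. The main fit, the permutation test and the SDs of a line therefore treat its 4 libraries as independent. The correlations within WT and within BR speak of a spread shared by libraries of the same replicate number, so those p-values may be too small or too large. Under DMSO, where 0 were called, each of 5 alternatives gave 1 call: the CPM filter, upper-quartile scaling, the replicate block, limma on log2(FPKM + 1) and a fit of only the 4 libraries compared. There were 3 without a filter, 4 with limma on log2(FPKM + 0.1) and 28 with DESeq2. Under SI-2, where 1 was called, there were 34 with DESeq2, 3 with only the 4 libraries compared, 0 with both limma scales and 0 to 67 with 1 library left out. For SI-2 in BR cells there were 1 with DESeq2 and 0 to 67 with 1 library left out. Each 67 came without the first BR-SI-2 library, which leaves the one with collagen RNA alone and assumes that it varies like the other groups. For SI-2 in WT cells and for the interaction DESeq2 called 1. The cause of these changes was not tested.

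Several log2 fold changes close to 0 turned sign. With limma HMGA2 in BR against WT was -0.061 and -0.10 for pseudocounts of 1 and 0.1, IGF2BP2 under SI-2 was 0.033 and 0.035, IGF2BP3 with SI-2 in BR was 0.019 and 0.027, and HMGA1 there was 0.021 and 0.021. With library size scaling IGF2BP2 under SI-2 was 0.015 and HMGA1 with SI-2 in BR was 0.010. Leaving out 1 library gave ranges that crossed 0. In BR against WT over 8 libraries they were -0.0051 to 0.15 for IGF2BP1, -0.019 to 0.057 for IGF2BP2 and -0.14 to 0.21 for HMGA2. Under DMSO they were -0.11 to 0.30 for IGF2BP1, -0.011 to 0.15 for IGF2BP2 and -0.39 to 0.19 for HMGA2. Under SI-2 they were -0.16 to 0.27 for IGF2BP1, -0.055 to 0.0088 for IGF2BP2 and -0.17 to 0.47 for HMGA2. For SI-2 in BR they were -0.18 to 0.25 for IGF2BP1, -0.18 to 0.087 for IGF2BP3 and -0.28 to 0.28 for HMGA1. For SI-2 in WT they were -0.10 to 0.27 for IGF2BP1, -0.12 to 0.050 for IGF2BP2, -0.13 to 0.17 for IGF2BP3, -0.28 to 0.059 for HMGA1 and -0.11 to 0.37 for HMGA2. For the interaction they were -0.26 to 0.18 for IGF2BP1, -0.22 to 0.087 for IGF2BP3, -0.17 to 0.38 for HMGA1 and -0.096 to 0.57 for HMGA2. The difference in the HMGA1 transcript share ranged from -0.55 to 2.25 percentage points.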
